A study of Bos taurus with 2 samples.

Results

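Interferon-stimulated genes are the genes that a cell switches on after an interferon, a cytokine released in response to viral RNA or DNA, binds its receptor. The set described here holds 35 such genes, of which 28 had at least 1 probe on the array whose accession is paired with the gene's symbol, out of 26714 genes and unnamed transcripts on the array, of which 19554 had a value. They were chosen by name as sensors of viral RNA, transcription factors, antiviral effectors and genes best known as targets of interferon-gamma, by a rule that uses no measured value. The LT muscle is the longissimus thoracis, a skeletal muscle of the back. It was taken from Japanese Black cattle fetuses at 8.5 months of gestation, whose dams were fed 120% (HN group) or 60% (LN group) of the nutritional requirement, and RNA from 4 fetuses per group was pooled and applied to 1 one-color array. According to the methods, the HN pool was made of the fetuses with the highest BW and the LN pool of those with the lowest BW, so that diet and selection by BW cannot be told apart. No group was fed exactly the requirement, and the spread between fetuses is unknown. All differences are given as log2 LN/HN after quantile normalization, without a test or p-value. A gene is called lower or higher past the threshold where its log2 LN/HN is beyond 0.32 in that direction.

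Type I interferons bind the IFNAR1 and IFNAR2 receptor chains, and the kinases JAK1 and TYK2 then phosphorylate STAT proteins. STAT2 acts with IRF9 in the complex ISGF3, which activates genes that carry an interferon-stimulated response element, whereas interferon-gamma acts in part through IRF1. Many of these genes are also expressed at a low level without infection, and muscle fibers, endothelial cells and resident immune cells can all contribute their transcripts to whole muscle RNA.

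Most interferon-stimulated genes that could be measured had a lower signal in LN, but few of the differences were large. IFI27 and IFI6, small membrane proteins strongly induced by type I interferon, were 1.74-fold and 1.67-fold lower in LN. The transcription factors IRF1 and IRF9 were 1.34-fold and 1.26-fold lower. The classical antiviral genes ISG15, MX1 and RSAD2 stayed within the threshold, and no gene of the set was higher past it.

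A probe was counted as measured on an array where its spot carried the mark of a signal well above background. Of the 54 probes of the set, 34 were measured on both arrays, 9 on the HN array only, 0 on the LN array only and 11 on neither. Thus 9 of the 43 detected probes of the set were measured on the HN array only. Among all detected probes, 5.65% were measured on the HN array only and 0.867% on the LN array only. More spots were well above background on the HN array (74.5%) than on the LN array (70.9%), and the lowest signal so marked had a log2 value of 2.27 for HN and 2.82 for LN. A probe measured on the HN array alone could give a fold only if it was lower in LN, so the counts below were made over the 22 genes with a probe measured on both arrays. Of these, 17 were lower and 5 higher in LN, whereas 49.3% of all 18800 genes measured in this way were lower. There were 4 genes lower past the threshold (IFI27, IFI6, IRF1 and IRF9), or 18.2% of the 22, against 7.99% of all genes, and 0 higher past it, against 8.12% of all genes. The median log2 LN/HN was -0.15 in the set and 0.0029 in all genes. These shares rest on few genes, and no test of a list was made with 1 array per group. A further 3 genes (OAS1X, MX2 and IFIT3) were lower only as limits, their direction being set by the requirement of a fold, so that 20 of 25 genes with any value were lower (50.7% of all genes) and 5 past the threshold (9.11%). Nothing is read from the latter counts or from OAS1X being lower past 2-fold, as 0.286% of all genes were.

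**Figure D1:**
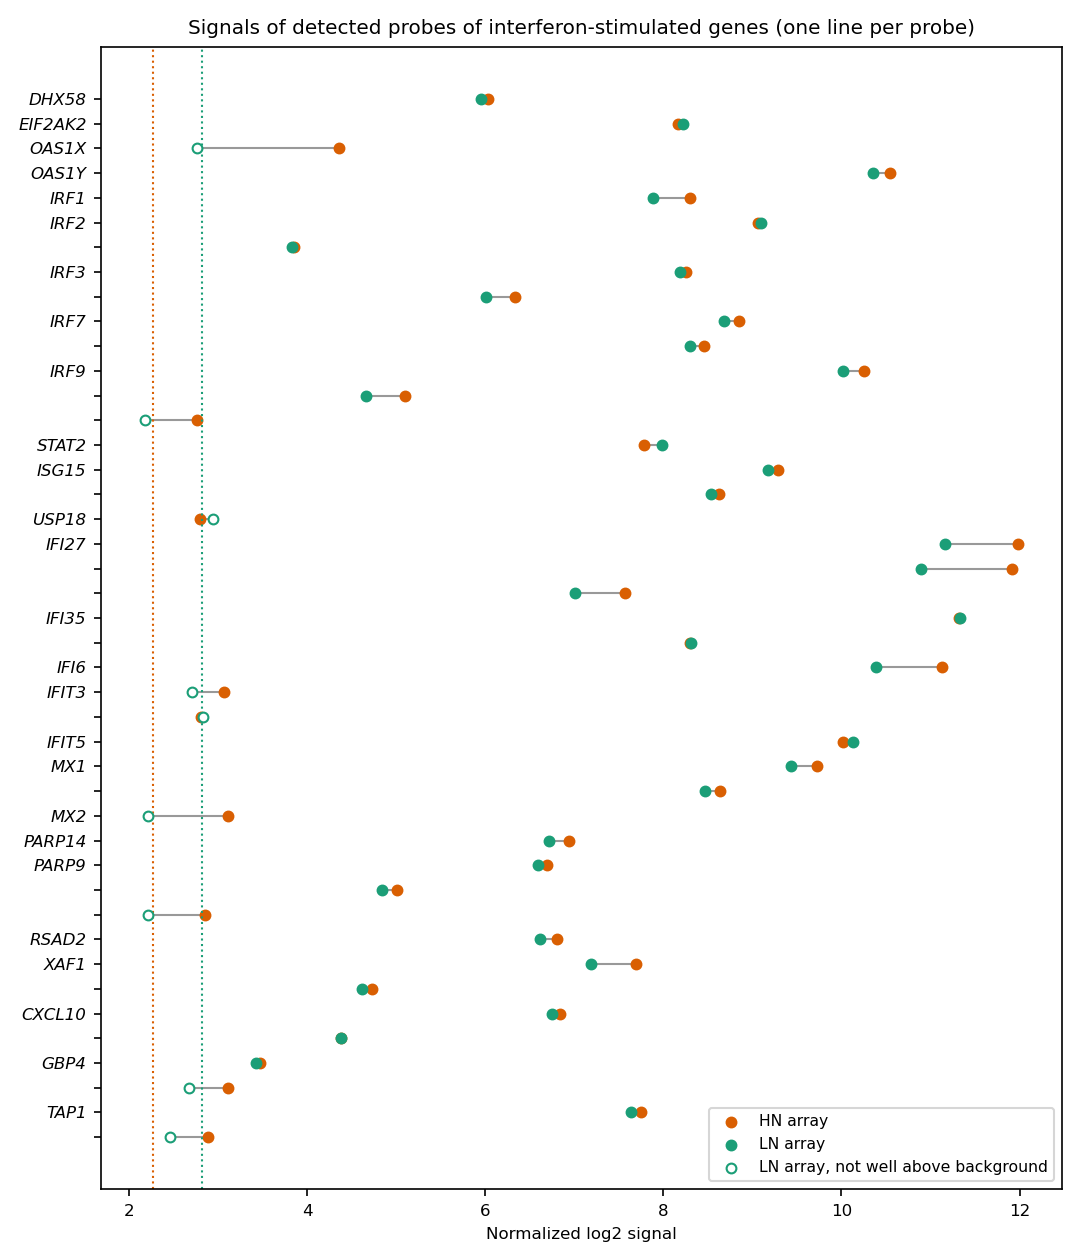
Normalized log2 signal (horizontal axis) of each detected probe of the interferon-stimulated genes, one line per probe, ordered by role from RNA sensors at the top to genes associated with interferon-gamma at the bottom. Orange points are the HN array, green points the LN array, open where the LN signal was not well above background, and dotted lines mark the lowest signal well above background on each array. The LN point lies to the left of the HN point in 27 of the 34 probes measured on both arrays, with the widest gaps among them at IFI27 and IFI6. Of all 30639 probes measured on both arrays, 14960 were lower in LN.

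The precision of a single array measurement can be set beside these differences. Among 42 probes printed in several spots, the log2 ratio of 1 spot had an SD of 0.0854, which corresponds to a fold of 1.12 at 95%. Where 2 or more probes of a gene were measured on both arrays (7139 genes), the median SD between the probes of a gene was 0.0995. The scanning software gives a wider error, with a median standard error of 0.20 for the log2 ratio of a measured probe of the set. By that error, the 95% interval of the log2 ratio lay below 0 in 6 of the 34 probes measured on both arrays (17.6%), against 3.87% of all such probes, and above 0 in none of them (3.99% of all probes). The 6 were the 3 probes of IFI27, and 1 probe each of IFI6, IRF1 and XAF1. These errors describe the arrays and leave out the variation between animals.

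The first members of the pathway are the proteins that detect viral RNA. DHX58, known as LGP2, is a helicase that modulates signaling by the RIG-I-like receptors. Its log2 signal was 6.03 in HN and 5.95 in LN, a log2 LN/HN of -0.08. EIF2AK2, the kinase PKR, which stops translation when it binds double-stranded RNA, had log2 signals of 8.17 and 8.22, a log2 LN/HN of 0.05. Both genes lay within the error of a spot, and DHX58 had a second probe that was not detected on either array. IFIH1, which encodes the RNA sensor MDA5, had no matched probe.

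The oligoadenylate synthetases make short 2',5'-linked adenylates when they bind viral RNA, and cattle carry several related OAS1 genes. OAS1Y had a log2 signal of 10.55 in HN and 10.36 in LN, a log2 LN/HN of -0.19. The single probe of OAS1X was measured only on the HN array, with a log2 signal of 4.36, and its LN signal of 2.76 was not well above background. OAS1X was therefore at least 2.91-fold lower in LN (log2 LN/HN at most -1.54). OAS1Y, OAS1X and OAS2 are next to each other in the gene order of the reference assembly, and the limit of OAS1X cannot be set against the measured value of OAS1Y. The value of OAS1X came from a dim probe and was -0.33 after the normexp background correction, whose offset of 50 compresses dim signals. OAS1Z, a further copy that is not in the set, had a log2 LN/HN of -0.36 from log2 signals of 3.76 and 3.39, with a 95% interval of the software error from -1.05 to 0.33. Because the OAS1 genes are near copies of each other, a probe may bind the transcripts of more than one of them, and the division of signal between them is uncertain. OAS2 was not detected on either array, with log2 signals of 2.46 and 1.75.

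Among transcription factors, the complex formed by IRF9 and STAT2 is the direct activator of most genes of the set. IRF9 had log2 signals of 10.26 in HN and 10.02 in LN in one probe (log2 LN/HN -0.23), and of 5.10 and 4.66 in another (-0.44). A further IRF9 probe was measured on the HN array alone at 2.76, too dim for a fold. The mean of the measured probes was -0.34, just past the threshold, and the interval of each probe reached 0. STAT2 lay on the other side, with log2 signals of 7.78 and 7.99 and a log2 LN/HN of 0.20, the highest value in the set. Its interval ran from -0.20 to 0.60, and its other probe was not detected. IRF9 and STAT2 thus had values of opposite sign, except in 2 of 12 other settings, where undetected probes were included and STAT2 was at -0.77.

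IRF1, a factor induced by interferon-gamma that activates genes of antigen presentation, had log2 signals of 8.30 in HN and 7.88 in LN. Its log2 LN/HN was -0.42, with an interval from -0.82 to -0.017, so the difference was at the edge of the software error. Its other probe was not detected on either array. IRF2, which competes with IRF1 for the same DNA element, had probes at -0.02 and 0.03 and a gene value of 0.01. IRF3 and IRF7 are the factors that switch on the interferon genes themselves after viral sensing. IRF3 had probes at -0.07 and -0.32, and IRF7 had closely matched probes at -0.18 and -0.16, so their gene values were -0.20 and -0.17. SP110, a nuclear body protein, had no matched probe. In all, 4 of the 6 factors with a value were lower in LN (49.3% of all genes), and 2 of the 6 were so past the threshold (7.99% of all genes).

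ISG15, a ubiquitin-like protein that is attached to other proteins during the interferon response, is among the most responsive genes of the pathway. Its log2 signal was 8.62 in HN and 8.53 in LN in one probe, and 9.29 and 9.18 in the other. Both probes were slightly lower in LN, and the gene value of -0.10 was within the error of the measurement. USP18, the protease that removes ISG15 and dampens the receptor, was near the detection limit. It was measured on the HN array alone at a log2 signal of 2.79, and the LN signal of 2.95 was not well above background, so no fold was given.

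**Figure D2:**
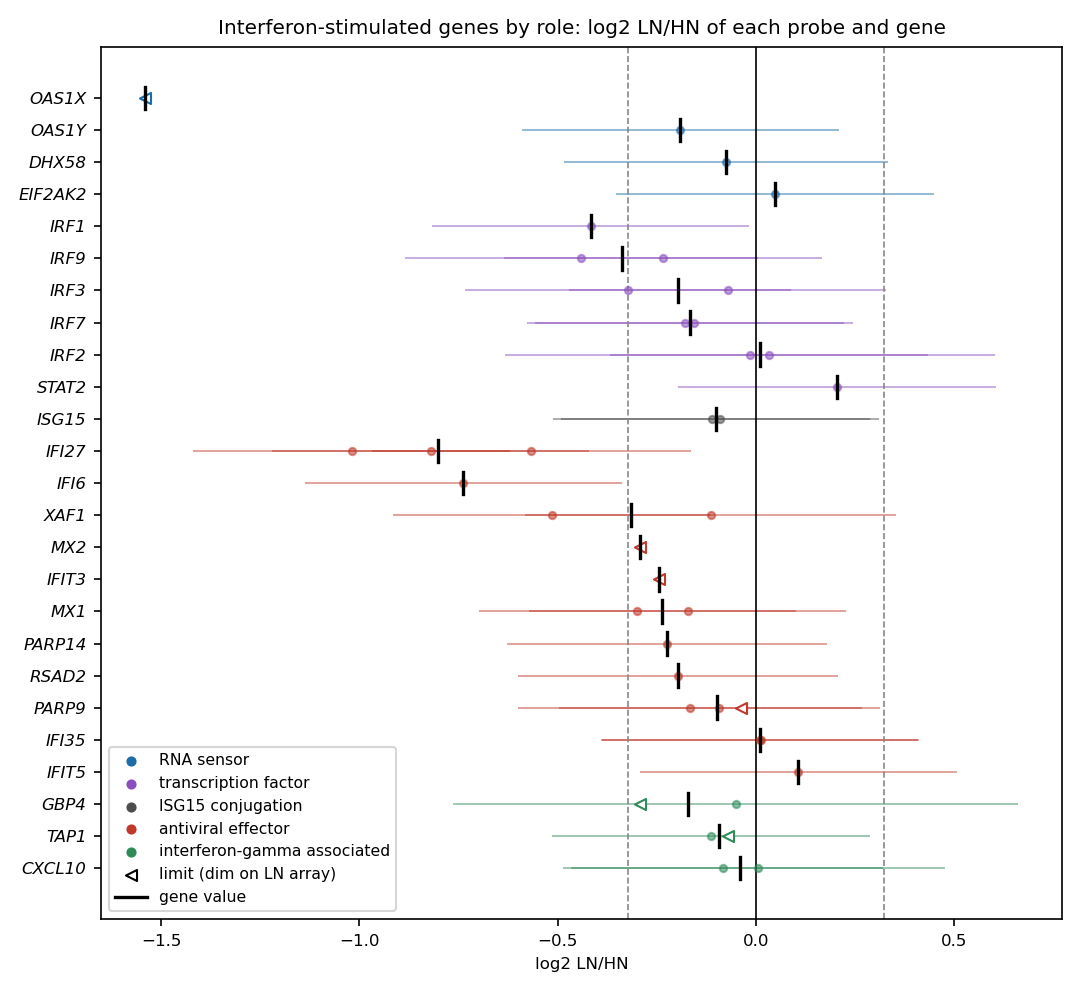
Log2 LN/HN (horizontal axis) of the 25 interferon-stimulated genes with a value, colored by role. Points are probes measured on both arrays with the 95% interval of the software error, open triangles are limits where the LN signal was not well above background, black bars are gene values and dashed lines mark the threshold. IFI27, IFI6, IRF1 and IRF9 lie to the left of the threshold, OAS1X is a limit at -1.54, and STAT2 is highest at 0.20.

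The antiviral effectors held the largest differences measured on both arrays. IFI27, an interferon-induced protein of mitochondrial and nuclear membranes, was represented by 3 probes. Their log2 signals were 11.92, 11.99 and 7.57 in HN and 10.90, 11.17 and 7.00 in LN. All probes were lower in LN, with log2 LN/HN values of -1.02, -0.82 and -0.57, and none of their intervals reached 0. The gene value was -0.80, rank 130 by size of decrease among the 19554 genes with a value, and it was between -0.82 and -0.74 under the other settings. IFI6, a related protein of the same family that limits apoptosis, had a log2 signal of 11.13 in HN and 10.39 in LN. Its log2 LN/HN was -0.74 (interval -1.14 to -0.34, rank 182) from its only probe. XAF1, a proapoptotic protein induced by interferon, was just short of the threshold at -0.31. Its probes differed in size, at -0.51 (log2 signals 7.70 and 7.18) and -0.11 (4.73 and 4.61).

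The Mx proteins are dynamin-like GTPases that block the replication of many viruses. MX1 was measured by probes with log2 signals of 8.64 and 9.73 in HN and 8.47 and 9.43 in LN. They gave log2 LN/HN values of -0.17 and -0.30, a gene value of -0.24 that did not pass the threshold. MX2, which lies next to MX1 in the gene order, was measured on the HN array alone at 3.11, with 2.21 on the LN array, and was at least 1.22-fold lower. This limit depended on the setting, from -0.90 to -0.07 on the log2 scale, and passed the threshold in 6 of 10. RSAD2, or viperin, which makes a chain-terminating ribonucleotide, had log2 signals of 6.81 and 6.61 and a log2 LN/HN of -0.20.

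The IFIT proteins bind viral RNA ends. IFIT3 was close to the detection limit, with one probe at 3.06 in HN and 2.70 in LN, at least 1.18-fold lower. Its further probe, at 2.80 in HN and 2.82 in LN, was too dim for a fold, and the limit passed the threshold in 2 of 10 other settings. IFIT5 was well above background on both arrays, with log2 signals of 10.02 and 10.13 and a log2 LN/HN of 0.11. PARP9 and PARP14, members of the ADP-ribosyltransferase family, had log2 LN/HN values of -0.10 and -0.22. PARP14 had log2 signals of 6.94 in HN and 6.71 in LN. PARP9 had probes at -0.09 and -0.17 and a limit at -0.04. IFI35, a leucine zipper protein, had a log2 LN/HN of 0.01 in each of its probes. IFIT2, IFI44, IFI44L and BST2 had no matched probe.

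Among the genes best known as targets of interferon-gamma, the measured probes of CXCL10, TAP1 and GBP4 lay within the threshold. CXCL10, a chemokine that attracts activated T cells, had log2 signals of 6.84 and 6.75 in one probe and 4.38 and 4.38 in another, a gene value of -0.04. TAP1, a subunit of the peptide transporter for MHC class I, had log2 signals of 7.75 and 7.63 in its brighter probe (log2 LN/HN -0.11), and a limit of -0.07 in a dim one. GBP4, a guanylate-binding GTPase, had a measured probe at -0.05 and a limit at -0.29, a gene value of -0.17. GBP4 ranged from -0.66 to -0.05 under the other settings and was lower past the threshold in 5 of 12. GBP5 was not detected, with log2 signals of 2.08 and 1.24, and GBP2 had no matched probe.

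Agreement between probes differs from gene to gene. In 11 genes of the set, 2 or more probes were measured on both arrays, and all probes were lower in LN in 8 of them (72.7%), against 28.7% of the 7139 such genes. The exceptions were IRF2 and CXCL10, whose probes lay on either side of 0, and IFI35, whose probes were both just above 0. The lower genes nearest to the threshold were IRF9 (-0.34), IRF1 (-0.42) and IFI6 (-0.74) on the far side and XAF1 (-0.31), MX2 (-0.29, a limit) and IFIT3 (-0.24, a limit) on the near side. Under the other settings IRF9 ranged from -0.42 to -0.16 and XAF1 from -0.51 to -0.16, so the call of each depended on the setting, as it did for MX2, IFIT3, GBP4 and STAT2.

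Of the 7 genes for interferon receptors, JAK kinases and STAT proteins outside the set that were measured on both arrays, 4 were lower (49.3% of all genes) and 3 higher in LN, 0 of them past the threshold, with a median of -0.0062. The receptor chains IFNAR2 and IFNGR1 had log2 LN/HN values of 0.06 and 0.08, and the kinases JAK1 and TYK2 had -0.03 and -0.01. IFNAR1 and IFNLR1 were measured on the LN array alone, at log2 signals of 3.13 and 3.08. They were higher past the threshold, at least 1.81-fold and 1.71-fold, as dim probes that could give a fold only if higher in LN. Of the interferons themselves, IFNB3 (0.12) and IFNT3 (0.02) were measured, and 5 others on the array, IFNG among them, were not detected on either array.

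Genes that sense nucleic acids or carry the signal to interferon induction were lower in 11 of 13 cases (49.3% of all genes), with a median of -0.17, and 3 were lower past the threshold (7.99% of all genes). UNC93B1, the chaperone of endosomal Toll-like receptors, had log2 signals of 4.42 and 3.73 (log2 LN/HN -0.69, interval -1.24 to -0.14). The kinase IKBKE and the adaptor TRAF3 had log2 LN/HN values of -0.48 and -0.38, each with an interval that reached 0. These 3 probes were dim, and the adaptors MAVS (-0.01) and STING1 (-0.04) differed little. TLR3 was at -0.19 and the kinase TBK1 at 0.22. TLR7 and TLR8 were not detected.

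Negative regulators of the pathway were higher in LN in 9 of 9 genes, where 9527 of the 18800 genes were higher, although only CISH, a suppressor of cytokine receptor signaling, passed the threshold. CISH had log2 signals of 10.07 and 10.45, a log2 LN/HN of 0.38 with an interval from -0.02 to 0.78. Their values began at 0.0027, the median of the list was 0.09, and under the other settings up to 2 of its genes were lower. SOCS3 and TNFAIP3 were not detected.

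Among 31 other interferon-induced genes measured on both arrays, 20 were lower (49.3% of all genes) and 11 higher. There were 6 lower past the threshold (19.4%, against 7.99% of all genes) and 4 higher past it (8.12% of all genes). RTP4, a chaperone of membrane receptors induced by type I interferon, had probes with log2 signals of 9.45 and 4.35 in HN and 8.98 and 3.68 in LN. Both gave lower values, -0.47 and -0.67, and a gene value of -0.57. IFITM2, a membrane protein that hinders viral entry, was at log2 signals of 13.01 and 13.24 in HN and 12.50 and 12.81 in LN. Its log2 LN/HN was -0.47, and the intervals of both probes lay below 0. LGALS9, which encodes galectin-9, had a value of -0.51, the chemokine CCL8 -0.50, the RNA helicase MOV10 -0.37 and OAS1Z the value given above. Genes higher past the threshold included TRIM5, a capsid-binding restriction factor (0.56), TRIM38 (0.38) and HERC3 (0.33). CXCL9, a chemokine induced by interferon-gamma, was measured on the HN array alone at 4.11 and was at least 2.44-fold lower in LN. The list thus held genes past the threshold in both directions, and its median was -0.09.

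Antigen presentation by MHC class I is a further target of interferons. Of 15 genes measured, 10 were lower (49.3% of all genes) and 5 higher, and the median was -0.07. There were 5 lower past the threshold (33.3%, against 7.99% of all genes) and 0 higher past it (8.12% of all genes). The 5 were the immunoproteasome subunits PSMB9 (-0.57) and PSMB8 (-0.42), the class I heavy chain genes BOLA (-0.56) and JSP.1 (-0.47), and B2M (-0.37), the light chain. PSMB9 was measured by 3 probes with log2 LN/HN values between -0.59 and -0.55, all with intervals below 0. B2M had 4 probes between -0.45 and -0.28, and the intervals of those at -0.28 and -0.32 included 0. JSP.1 had 3 probes that differed in size, between -0.77 and -0.03. The class I heavy chain genes are near copies of each other and vary between animals, so their probes may not tell them apart. TAP1 and TAP2 (-0.09 and -0.04), which act in the same pathway, did not pass the threshold.

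**Figure D3:**
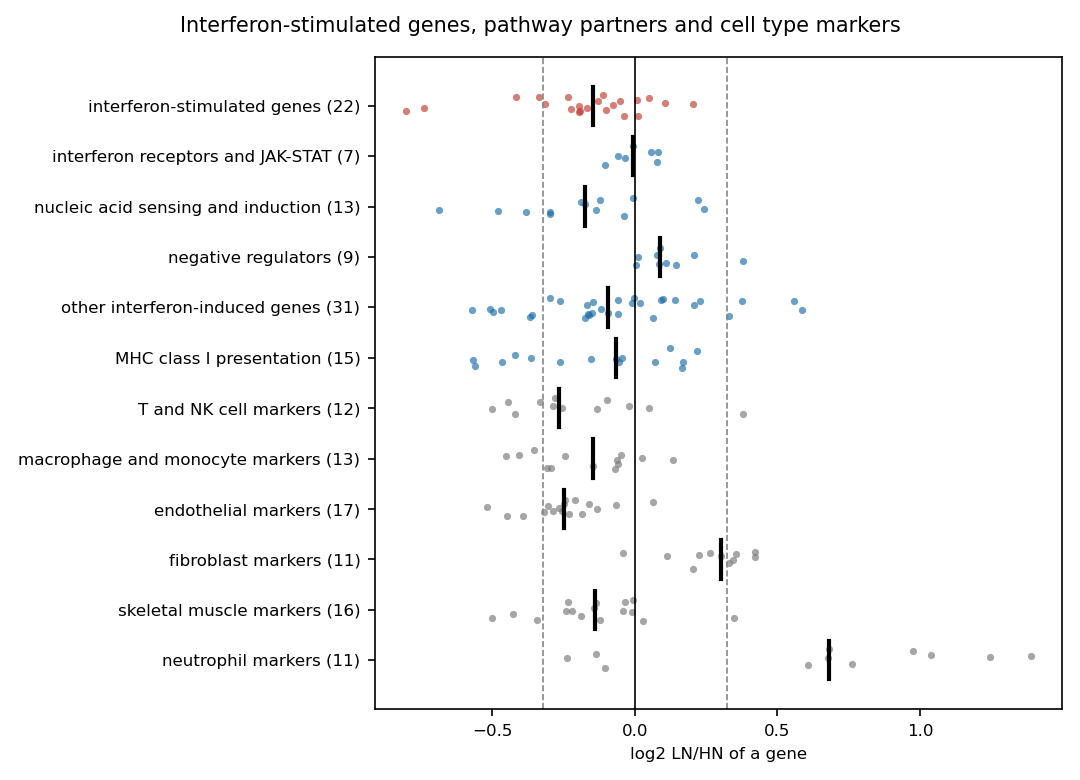
Log2 LN/HN (horizontal axis) of genes measured on both arrays, one point per gene, in the interferon-stimulated genes (red), other lists of the pathway (blue) and cell type markers (gray), with the number of genes in parentheses. Black bars are medians and dashed lines mark the threshold. The median was -0.15 in the interferon-stimulated genes, -0.0062 in receptors and JAK-STAT genes, 0.09 in negative regulators, -0.27 in T and NK cell markers, -0.25 in endothelial markers and 0.30 in fibroblast markers.

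Whole muscle RNA comes from many cell types, and fewer cells of a type cannot be told apart from less RNA per cell. The tissue label was borne out by muscle genes, with log2 signals in HN of 17.57 for ACTA1, 16.68 for CKM and 17.47 for MYL1, and each of the 16 skeletal muscle markers on the array was detected. Of the markers measured on both arrays, those of T and NK cells were lower in LN in 10 of 12 genes (49.3% of all genes), with 4 lower past the threshold (7.99% of all genes), 1 higher past it (8.12%) and a median of -0.27. Their summed signal was 21932 in HN and 19550 in LN. Of the HN sum, 69.0% came from 1 bright probe of CD4, no other probe of which was measured on both arrays. Without that probe the sums were 6797 and 5756. These in turn came largely from TBX21 and CD3D, at log2 signals of 11.96 and 10.56 in HN. Each of these was measured by 1 probe, with its other probe not detected, so the sums describe few of the markers. CD2 and LCK had values of -0.44 and -0.50, whereas PRF1, the 1 marker higher past the threshold, was at 0.38. The probes of CD3E disagreed, at -0.40 and 0.50. Markers of macrophages and monocytes were lower in 11 of 13 genes (49.3% of all genes), with a median of -0.15. Their summed signal was 14041 in HN and 11846 in LN. Among them C1QB was at -0.45 and CD68 at -0.35, but CD14 and CD163 were at -0.05 and 0.02. Endothelial markers were lower in 16 of 17 genes (49.3% of all genes), with a median of -0.25 and a summed signal of 66711 and 52740, and PECAM1 was at -0.32.

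Other cell types differed in other ways. Of the markers of plasmacytoid dendritic cells, which release large amounts of type I interferon, 2 were lower and 2 higher, apart from IRF7, and SPIB was not detected. B cell markers had a median of 0.01 in 3 genes, and MS4A1 was not detected. Skeletal muscle markers were lower in 14 of 16 genes (49.3% of all genes), with a median of -0.14. Markers of fibroblasts were higher in 10 of 11 genes and neutrophil markers in 8 of 11, where 9527 of the 18800 genes were higher. Fibroblast markers had a median of 0.30 and a summed signal of 372445 in HN and 473994 in LN. Neutrophil markers had a median of 0.68 and a summed signal of 4075 and 6793. Among those measured on both arrays, S100A8 had the highest log2 LN/HN, 1.39. The 3 lower neutrophil markers were ELANE (-0.13), MMP9 (-0.24) and CHI3L1 (-0.10). Erythroid markers had a median of -0.06. Over genes measured on both arrays, the medians of T and NK cell and endothelial markers were thus lower than that of the interferon-stimulated genes (-0.15). Those of macrophage and skeletal muscle markers were close to it. With limits included, the median was -0.19 in T and NK cell markers and -0.19 in the interferon-stimulated genes. Over all settings, that of T and NK cell markers ranged from -0.28 to -0.10. The part of these cell types in the lower values of the interferon-stimulated genes was not tested.

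**Figure D4:**
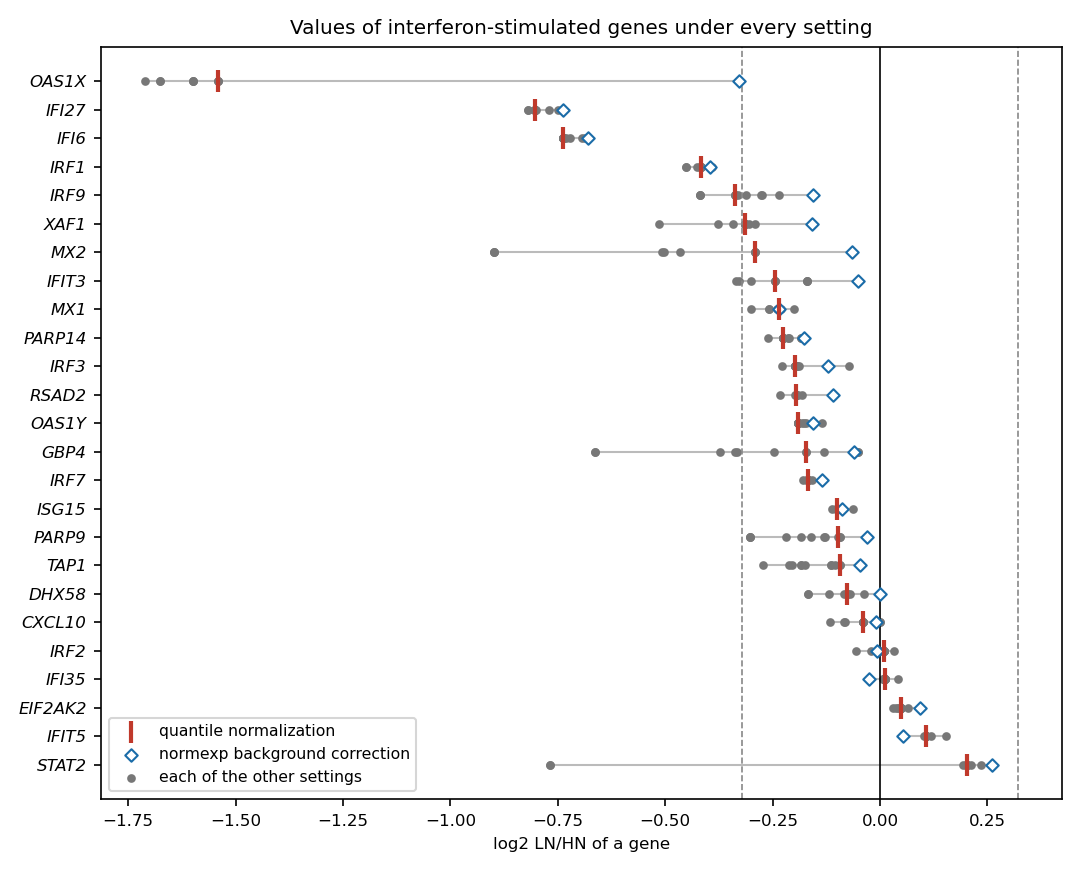
Log2 LN/HN (horizontal axis) of the 25 interferon-stimulated genes with a value after quantile normalization (red bars), after the normexp background correction (open diamonds) and under the other alternatives (gray points), with dashed lines at the threshold. IFI27, IFI6 and IRF1 lay to the left of the threshold under every setting. The limit of OAS1X did so under each of the 10 alternatives that gave it a value, although with normexp it was at -0.33, and those of MX2 and IFIT3 were nearest to 0 with normexp.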

How the data were processed

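Total RNA of the LT muscle, pooled from 4 fetuses per group, was hybridized to 2 arrays (Agilent Bovine v2) on 1 slide. The authors deposited spot intensities from Feature Extraction 11.0.1.1, corrected for background and not normalized between arrays. They also deposited values that, from their range, are on the log2 scale. These cover 30027 probes, 34 of the set among them, and were quantile-normalized in GeneSpring GX per the methods. Against the log2 intensities, Pearson's r over probes was 0.9995 (HN) and 0.9996 (LN), and the median was 8.03 on both arrays. No column belonged to other samples.

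Log2 intensities of the 43803 non-control spots were quantile-normalized with limma 3.58.1 in R 4.3.3. Spots flagged as outliers (13) were removed and spots of a probe averaged. Probes well above background on either array counted as detected (32775 of 43652), and 30639 were so on both. Where 1 side was dim, it took the lowest signal well above background of its array, or its own if higher, which makes the value a limit, with no fold where the bright side did not exceed it. Log2 ratios of detected probes were averaged per gene. Counts over genes used probes measured on both arrays, a choice made after seeing the data, beside those with limits. The threshold was 0.32 on the log2 scale, as set by a fold used in the study. Intervals are 95% from the software's error.

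Probe accessions were paired with symbols by a RefSeq gene table (assembly ARS-UCD2.0; 26742 probes, 12603 symbols), used for names and gene order only. Neither BST2 nor GBP2 was found in it. Promoter motifs were not examined, since no sequence was used here. Python 3.11.15 was used with scipy 1.17.1, pandas 2.3.3, numpy 2.4.6 and, for figures, matplotlib 3.10.9. The steps were run on simulated data for LN against HN with 200 of 19693 genes changed. Of these, 100% passed the threshold in the right direction, with 0.0154% of unchanged genes past it. The median absolute error of log2 LN/HN was 0.054 there. The median software standard error of a measured probe of the set was 0.20. The rate of wrong calls among the measured genes, dim ones included, was not tested. The genes named are every member with a probe, the genes of the other lists past the threshold or defining a list, and the 3 members on each side of the threshold. The rule allowed 6 genes per list, and those named beyond 6 were added after their values were seen. The values of some genes of the lists are counted but not reported here. The members and the 15 other lists were chosen from general knowledge with earlier results of these data known. The 12 alternatives covered normalization, background correction, dim probes, outlier spots, the value of a gene and the authors' values. Normexp used the median spot signal, not the mean. The number of arrays limits the precision.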

Additional observations from a re-analysis of the deposited data

How the results depend on the processing

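Of the 22 genes measured on both arrays, 3 (IFI27, IFI6 and IRF1; 13.6%) were lower past the threshold under every alternative that gave them a value, against 1.59% of the 18800 genes of that kind, and 15 (68.2%) were below 0 under every one, against 35.5%. Of the 17 lower genes, the exceptions were DHX58, at 0 after normexp, and CXCL10. OAS1X, MX2 and IFIT3 had no value in the authors' table or with probes measured on both arrays. With limits included, the median of members with a value (-0.19 over 25) ranged from -0.22 (75th percentile subtracted) to -0.10 (normexp), over 26 in each, where the median of all genes was -0.04 and -0.0040. The count past the threshold lower was 8 of 26 with the 75th percentile subtracted (13.57% of all genes lower past it and 6.003% higher), 10 of 28 with probes that were only positive and significant against background (15.98% and 13.17%), and 10 of 28 with no filter on dim probes (13.45% and 12.17%). The last settings add signals close to background. The count past 2-fold lower was 0 after normexp, in the authors' normalized values and with probes measured on both arrays, against 1 (OAS1X). After normexp, 4 of 26 were lower past the threshold and 0 higher, against 1.96% and 1.62% of all genes. STAT2 ranged from -0.77, where its undetected probe was included, to 0.26. Among values of single genes, 34 moved by more than 0.0995, the median SD between probes of a gene, and 260 by less. This is below the software error of a probe. No paired analysis was possible because each group has 1 array, and leaving out a replicate was not possible either.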
